A study of Mus musculus with 21 samples.

Results

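The comparison covers glucocorticoid receptor (GR) binding in mouse liver after 24 h against 6 h of low oxygen, in animals that received no injected glucocorticoid. Its members are the 903 sites obtained by merging every pair of peaks that overlapped by at least 1 bp in the 6 peak lists of these animals, 3 libraries per time. The 18 libraries of the series gave 7398 sites when merged the same way, and the 6 libraries of hypoxic animals injected with dexamethasone (DEX) gave 2750. All animals were C57BL/6J mice, with no genetic change named. Those compared here breathed 7% oxygen in a chamber for 6 h or 24 h, received phosphate-buffered saline (PBS), went back to 7% oxygen and were sampled 2 h later, so the PBS injection is shared by both groups. The other groups of the series were DEX at 10 mg/kg at the same times, and normoxia with PBS or DEX, again with 3 libraries per group. Chromatin from pieces of frozen whole liver was precipitated with an antibody against GR and sequenced. A lower signal at a site in bulk tissue cannot be told apart between fewer cells with bound receptor and less binding per cell.

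GR is a nuclear receptor that is held in the cytoplasm by chaperones until it binds a glucocorticoid, and then enters the nucleus and binds DNA. In mice the natural hormone is corticosterone, which follows a daily rhythm and is released under stress. In hepatocytes GR induces genes of gluconeogenesis, amino acid breakdown and the restraint of inflammation, mostly from distant enhancers, at a palindromic element with a pair of hexamers 3 bases apart.

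Of the 903 sites, 56 overlapped a promoter window (250 bases before to 50 after a gene's start, RefSeq, GRCm38.p6, which is the assembly of mm10). The palindrome GNACANNNTGTNC, which reads the same on both strands, was found in the window of 10 of these 56 sites (17.9%), against 0.475% of all 32817 windows. Its inner part ACANNNTGT, which every full match holds too, was found for 17 sites (30.4%), against 6.85% of all windows. A match describes the letters in a window and is not a measured contact. The 4 stretches printed here are the upstream bases of such a window that lie within a site, and they were chosen to show 1 site found in every library, 2 found in more libraries at 6 h than at 24 h and 1 found in all 3 libraries at 6 h and none at 24 h. The sequences run 5′ to 3′ along the gene, with the palindrome in capitals.
A230028O05Rik (chr16:25059389-25059504, plus strand): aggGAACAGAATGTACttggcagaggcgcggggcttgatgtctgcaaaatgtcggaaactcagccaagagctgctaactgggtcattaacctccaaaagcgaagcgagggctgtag
Map3k6 (chr4:133240568-133240748, plus strand): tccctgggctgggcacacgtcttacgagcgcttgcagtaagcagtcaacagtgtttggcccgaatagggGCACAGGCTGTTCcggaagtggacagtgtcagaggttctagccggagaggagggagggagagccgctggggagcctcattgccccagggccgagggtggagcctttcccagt
Slc10a6 (chr5:103629464-103629653, minus strand): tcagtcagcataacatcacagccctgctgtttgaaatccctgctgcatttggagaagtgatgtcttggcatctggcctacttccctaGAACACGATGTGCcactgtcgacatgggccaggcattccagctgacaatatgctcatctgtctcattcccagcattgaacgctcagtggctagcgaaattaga
Mt1 (chr8:94178896-94179088, plus strand): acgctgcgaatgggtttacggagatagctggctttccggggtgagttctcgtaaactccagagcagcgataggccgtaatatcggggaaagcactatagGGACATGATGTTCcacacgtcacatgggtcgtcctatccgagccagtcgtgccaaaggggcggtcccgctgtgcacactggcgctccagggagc

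The stretch named A230028O05Rik lies in a site 66826 bp from Lpp, the nearest protein-coding gene, which encodes a focal adhesion protein. This site had a peak in all 6 libraries, with 289, 372 and 349 normalized tags at 6 h and 380.3, 224 and 257 at 24 h, on a scale of 10000000 tags per library. Both times overlapped there. The site upstream of Map3k6, a stress kinase, had 45.3, 204 and 113 tags at 6 h and a peak in 1 library at 24 h, with 60.6 tags. The site upstream of Slc10a6, a transporter of sulfated steroids, had 39.6, 124 and 57.7 tags at 6 h and no peak at 24 h. The site upstream of Mt1, a metallothionein, had no peak in replicate 1 at 6 h, 272 and 92.4 tags in replicates 2 and 3, and 59.6 tags in replicate 1 at 24 h only. A library with no peak has no tag count in the lists, so its signal at a site is unknown below the calling threshold, not 0.

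The lists held fewer peaks at 24 h, but the libraries of the 6 h group were spread so widely that the groups overlapped. Peaks numbered 230, 751 and 622 in replicates 1, 2 and 3 at 6 h, and 260, 153 and 78 at 24 h. The means were 534 ± 271 and 164 ± 91.5 (SD, n = 3 each), and the difference of the mean log2 numbers was -1.70, or 3.26-fold fewer peaks at 24 h (exact permutation test, two-sided, p = 0.2). The smallest p that 3 against 3 libraries allow is 0.1. The share of a library's tags that lay in its peaks was 0.698% ± 0.499 at 6 h and 0.247% ± 0.125 at 24 h (n = 3 each), which put the 24 h libraries -0.451 points from the 6 h ones (exact permutation test, p = 0.2). In both measures the groups overlapped through replicate 1 at 6 h and replicate 1 at 24 h. The log2 difference in peak number was -2.23 without the former and -2.12 without the latter, and the groups then did not overlap. The value nearest to 0 was -1.25, without replicate 3 at 24 h. Depth ran from 8876789 to 16121184 tags at 6 h and from 9626355 to 11723788 at 24 h. Peaks were called against the 6 h input for the 6 h libraries and against the 24 h input for the 24 h libraries, and the part of this in the difference was not tested. Every list held a minimum of 50 tags per peak, which stood for 31.9, 56.3 and 31 normalized tags in the 6 h libraries and 49.6, 42.6 and 51.9 in the 24 h libraries.

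**Figure D1:**
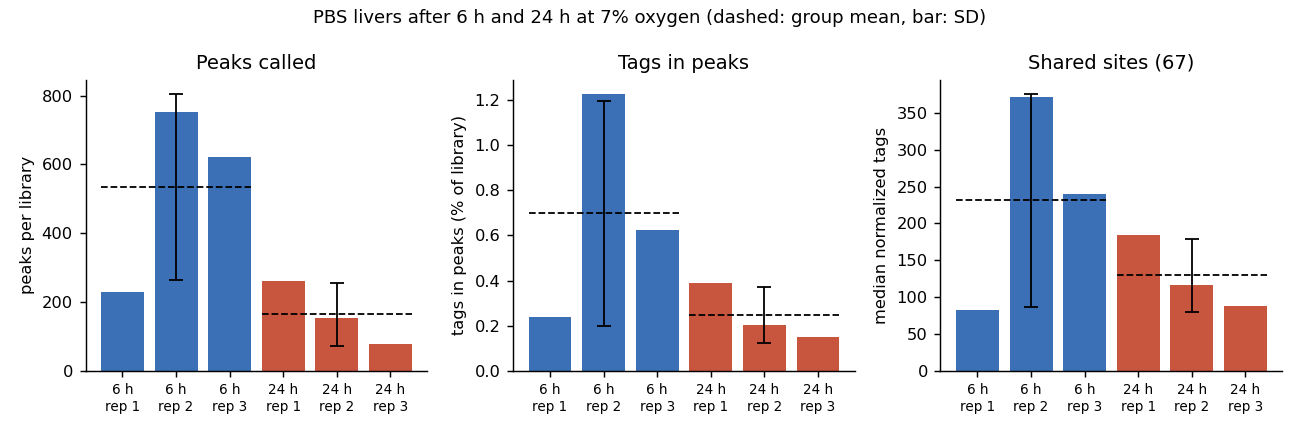
Number of peaks, share of tags in peaks (%) and median normalized tag count over the 67 sites with a peak in all 6 libraries, for each of the 3 libraries at 6 h and the 3 at 24 h. Bars are libraries, dashed lines are group means and error bars are SD (n = 3). Replicate 1 at 6 h, with 230 peaks and a median of 83.0 tags, lies within or below the range of the 24 h libraries in each measure.

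In the lists as deposited, sites found at 24 h were nearly all found at 6 h as well, while most 6 h sites were not found at 24 h. Any 6 h library had a peak at 897 of the 903 sites, and any 24 h library at 269. The 263 sites found at both times were 97.8% of the 24 h sites and 29.3% of the 6 h sites. Sites in at least 2 of 3 libraries numbered 507 at 6 h and 151 at 24 h, and the 147 in both sets were 29.0% and 97.4% of them. All 6 libraries shared 67 sites, and 376 sites had a peak in 1 library only, of which 255 were in replicate 2 and 105 in replicate 3 at 6 h. The asymmetry was smaller at equal list length, but such a cap draws the site numbers of the times together by design. The part of list length in the asymmetry was not tested. When each list was limited to its 78 highest-scoring peaks, 123 sites were found at 6 h and 109 at 24 h, and the 80 found at both times were 65.0% and 73.4% of them. Sites in at least 2 of 3 libraries then numbered 71 at 6 h and 75 at 24 h.

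Peaks in all 3 libraries at 6 h and in none at 24 h were found at 31 sites (3.43% of 903), and the reverse pattern at 1 site (0.111%). Fisher's exact test on detection was run on the 527 sites found in at least 2 libraries. It called 0 sites (0%), by design, since its smallest p is 0.1, and 0 sites had an unadjusted p under 0.05. The count of 31 sites rested on replicate 1 at 6 h, the most sparse of the 3 lists: without that library 249 sites had peaks in both remaining 6 h libraries and none at 24 h. Without replicate 1 at 24 h the count was 69. With 1 tag threshold for all libraries, set to what 50 tags stand for in the shallowest of them, it was 11, and with 78 peaks per list it was 1, against 4 for the reverse pattern.

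**Figure D2:**
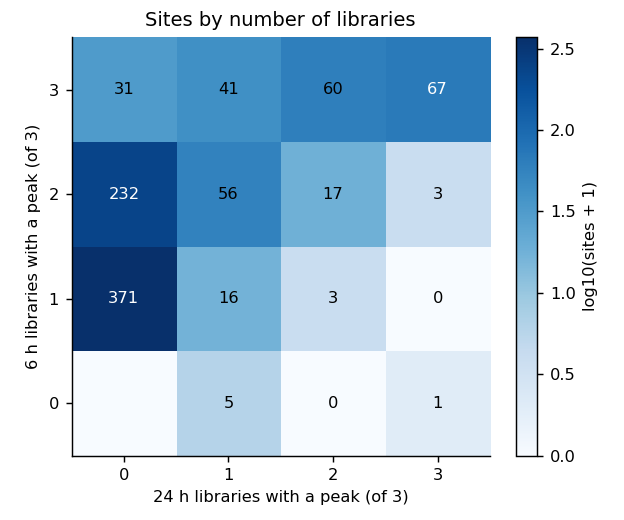
Number of the 903 sites by how many of the 3 libraries at 6 h and of the 3 at 24 h had a peak there. The 67 sites in the corner of 3 and 3 were found in every library, 31 were found in every 6 h library and no 24 h library, and 1 was found the other way round.

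The 31 sites fell into 2 kinds by the tags of the input control at the same place. At 22 of them the input had 0.6 to 4.8 tags, scaled to the depth of the GR libraries, and the authors' fold over input was 13.0 to 309.5. At the other 9 the input had 16.9 to 82.6 tags and the fold was 4.40 to 9.22. Of the 22 low-input sites, 21 had peaks in all 3 libraries of 24 h hypoxia with DEX, where the median tag counts were 122, 181 and 201, and 21 in all 3 of 6 h hypoxia with DEX. None of the 9 high-input sites had a peak in any library of 24 h hypoxia with DEX. At 6 h with DEX, 0 of the 9 had peaks in all 3 libraries, and the one near Sfi1 had peaks in 2 of 3. The background for these counts is that 717 of all 903 sites (79.4%) had peaks in all 3 libraries of 24 h hypoxia with DEX, and 477 of the 591 low-input sites found at 6 h only (80.7%). For 6 h hypoxia with DEX these were 744 (82.4%) and 502 (84.9%). Of all 634 sites found at 6 h only, 75 had no peak in any library of 24 h hypoxia with DEX. Of these 75, 36 were low-input sites, and the rest were among the 43 sites with 10 or more input tags. The high-input sites also had no peak at 24 h with DEX, where the same 24 h input was used, and the part of the input in their absence was not tested.

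Among the low-input sites, the one 582 bp from Ciart, a repressor in the circadian clock, had 41.5, 278 and 141 tags at 6 h. A site 8701 bp from Gm51791, a predicted gene, had 61.9, 309.8 and 109.8 tags and was the only one of the 22 at or above the common threshold of 56.3 in all 3 libraries. A site 6587 bp from St3gal5, the synthase of the ganglioside GM3, had 41.5, 368 and 40.9 tags. Replicate 2 was the highest of the 3 libraries at each of these sites, and replicate 1 had at most 61.9 tags, against its own threshold of 31.9. A site at Parva, a focal adhesion adaptor, had 46.0, 259 and 37.8 tags. A site 177452 bp from Foxo1, a transcription factor of the fasting response, had 43.4, 176 and 74.4. The site in Tsc22d3, which encodes the glucocorticoid-induced leucine zipper, had 42.1, 72.1 and 51.5 tags. It was the low-input site without peaks in all DEX libraries, with peaks in 2 of 3 at 24 h and 1 of 3 at 6 h.

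The highest mean counts among the 31 were at 2 high-input sites, near Rpp21 and Sfi1. At chr17:36231315-36231511, 24260 bp from Rpp21, which encodes a subunit of ribonuclease P, the 6 h libraries had 333, 338 and 541 tags over 82.6 input tags. At chr11:3192997-3193426 near Sfi1, a centrosome gene, they had 159, 151 and 177. At chr13:44869509-44869704 near Jarid2, a cofactor of Polycomb repression, they had 121, 149.8 and 207. The site near Rimbp3, which acts in spermatids, had 112, 122 and 154 tags, and an unplaced contig (JH584304.1, 26933 to 27155) had 118, 110.4 and 152.0. At these sites the counts of replicate 1 were close to those of replicate 2, whereas at the low-input sites named before they were lower.

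**Figure D3:**
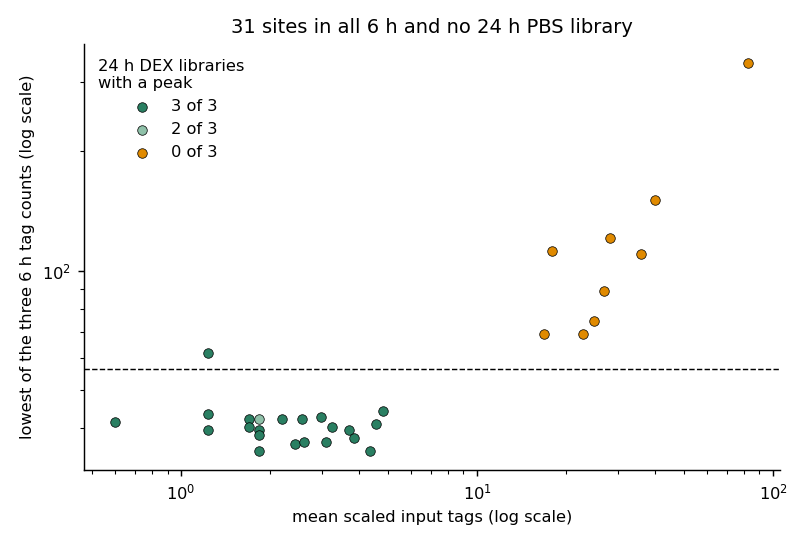
Lowest of the 3 normalized tag counts at 6 h (vertical, log axis) against the mean input tags (horizontal, log axis) for the 31 sites with peaks in all 6 h libraries and none at 24 h, coloured by how many of the 3 libraries of 24 h hypoxia with DEX had a peak, with the common threshold of 56.3 tags dashed. The 22 sites with 4.8 input tags or fewer lie below that line but for 1 and have DEX peaks, and the 9 with 16.9 or more lie above it and have none.

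The 6 sites found at 24 h only were mostly single peaks. The exception lay on the mitochondrial genome at positions 15825 to 16138, next to CYTB, the gene of cytochrome b, with 1036.5, 1049 and 1461 tags in the 24 h libraries over 224 input tags. Its fold over input was 4.95, near the caller's minimum of 4, and it had a peak in 1 of 3 libraries of 24 h hypoxia with DEX and in none at 6 h with DEX. The other 5 had a peak in 1 library with 55.1 to 71.5 tags. They included a site near Ppp1r3b, which encodes a glycogen-targeting subunit of protein phosphatase 1, with 58.6 tags, and one near Ly6l with 71.5. Both had peaks in all 6 libraries of hypoxia with DEX. Of the 6 sites, 3 (50%) had peaks in all 3 libraries of 24 h hypoxia with DEX, against 79.4% of all 903 sites. In all 3 of 6 h hypoxia with DEX, 2 of the 6 (33.3%) had peaks, against 82.4%.

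The 67 sites found in all 6 libraries allowed tag counts to be compared. The library medians over these sites were 83.0, 372 and 241 tags at 6 h and 185, 117 and 87.3 at 24 h. The means of these medians were 232 ± 145 and 130 ± 49.9 (SD, n = 3 each), and the log2 difference was -0.66, or 1.58-fold lower at 24 h (exact permutation p = 0.5). Replicate 1 at 6 h had a median below all 3 libraries at 24 h, and without it the log2 difference was -1.29. Without replicate 2 at 6 h it was -0.19. Of the 67 sites, 64 had called peaks in all 3 normoxia PBS libraries. In all 3 libraries of 24 h hypoxia with DEX 65 had peaks (97.0%), against 79.4% of all 903 sites. In all 3 of 6 h hypoxia with DEX 66 had peaks (98.5%), against 82.4%. The 67 were selected for peaks in every PBS library of hypoxia, and the normoxia PBS share over all sites was not computed. Of the 67, 26 lay inside a gene (38.8%), and of all 903 sites 448 did (49.6%), shares whose difference was not tested.

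Outside the mitochondrial genome, the highest mean tag counts were near Ptpn1 and in Klf13. The site at chr2:167844662-167844864, 85987 bp from Ptpn1, a tyrosine phosphatase that dampens insulin receptor signalling, had 925, 1959 and 1618 tags at 6 h and 1272, 809 and 607 at 24 h. The site in Klf13, a Krüppel-like transcription factor (chr7:63896955-63897176), had 674, 1619 and 1306 tags at 6 h and 1059, 784 and 579.7 at 24 h. Replicates 2 and 3 at 6 h were higher than every 24 h library at both, and replicate 1 was not. The site in Adk, the gene of adenosine kinase, had 379, 830.3 and 634 tags at 6 h and 579, 494 and 404 at 24 h. The site 266 bp from Zfp36, whose product destabilises cytokine mRNAs, had 132, 781 and 463 at 6 h and 418, 254 and 169 at 24 h. The groups overlapped at each of them. A cluster of 3 sites nearest to Armc12 lay 26778, 32034 and 37018 bp from Fkbp5, a GR co-chaperone that glucocorticoids induce. Its middle site (chr17:28518081-28518285) had 291, 709 and 573 tags at 6 h and 561, 401 and 263 at 24 h.

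Once each library was centred on its median over the 67 sites, no site passed the test. The limma fit called 0 sites higher (0%) and 0 sites lower (0%) at 24 h at an adjusted p of 0.05, and 4 of 67 (5.97%) had an unadjusted p under 0.05. The quasi-likelihood test of edgeR on the whole tags called 1 site, at Dnaja3. Centred log2 differences ran from -0.90 to 1.51 with a median of 0.14 and a median standard error of 0.26, 42 above 0 and 25 below. Without centring they ran from -1.56 to 0.85 with a median of -0.52 and a standard error of 0.70, 64 below 0 and 3 above, and again 0 sites passed. Centring moved every site by 0.66, so a centred value is relative to that shift. Without replicate 1 at 6 h the centred fit called 6 sites higher and 1 lower, the highest count of any omission, and without any other single library it called 0. The 6 included all 3 shared sites with 10 or more input tags.

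**Figure D4:**
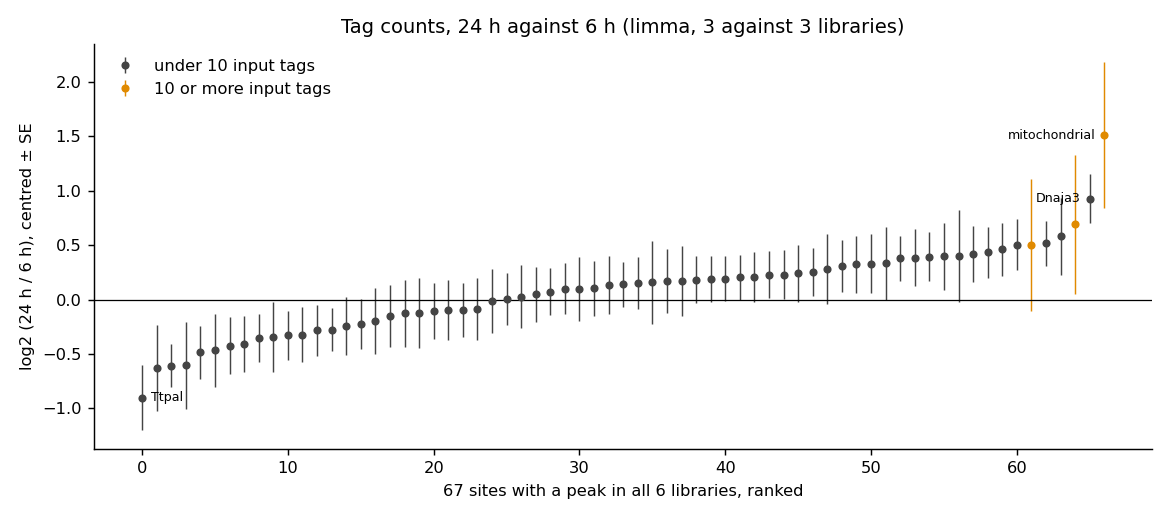
Centred log2 difference of normalized tag counts, 24 h against 6 h, with its standard error from limma, for the 67 sites with a peak in all 6 libraries, ranked. Colour marks the 3 sites whose input had 10 or more tags. Values run from -0.90 at Ttpal to 1.51 at the mitochondrial site, and 0 sites passed the adjusted test.

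The site in Dnaja3 (chr16:4702750-4702977), which encodes a mitochondrial co-chaperone, had 53.6, 213 and 104 tags at 6 h and 188, 119 and 92.5 at 24 h. Its raw groups overlapped, and after centring all 3 libraries at 24 h lay above all 3 at 6 h. The centred log2 difference was 0.93 ± 0.23 (SE, limma adjusted p = 0.176), and edgeR gave 0.90 (adjusted p = 0.0312). The call depended on the fit: the limma adjusted p was 0.494 with a replicate block, 0.806 without centring (difference 0.27), and 0.00315 (without replicate 1 at 6 h) to 0.745 (without replicate 2 at 24 h) when single libraries were left out. The second mitochondrial site, at positions 15468 to 15701 and 296 bp from CYTB, had 2242, 1528 and 1508 tags at 6 h and 2566, 3009 and 3918 at 24 h, so all 24 h libraries were above all 6 h libraries. It was the only site of 67 (1.49%) with that order in the raw counts, and its centred difference was 1.51 ± 0.67 (limma adjusted p = 0.592). Its input had 349 tags at 6 h and 236 at 24 h. These input values are scaled to the depth of the GR libraries, which was higher on average at 6 h, so they do not compare the inputs directly. With DEX the site had peaks in 3 of 3 libraries at 24 h and in 0 of 3 at 6 h.

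Per1, a core clock repressor that GR induces, held a site (chr11:69096976-69097184) with 298, 549.7 and 472 tags at 6 h and 541, 309.6 and 393 at 24 h. Its centred difference was 0.58 ± 0.35 (limma adjusted p = 0.592), and without centring it was -0.08, so its sign depended on the scaling. The site in Nr1i2, the gene of the pregnane X receptor, had 40.9, 229.8 and 140.2 tags at 6 h and 152, 98.9 and 65.4 at 24 h (centred 0.52 ± 0.21, limma adjusted p = 0.560, and -0.14 without centring). Klf15, a transcription factor of amino acid breakdown, held a site with 40.9, 162 and 109 tags at 6 h and 118, 57.1 and 67.5 at 24 h. Its centred difference of 0.44 ± 0.23 likewise turned to -0.22 without centring. The site 124801 bp from Dio3, a deiodinase that inactivates thyroid hormone, had 45.3, 239 and 99.9 tags at 6 h and 143, 93.8 and 58.2 at 24 h.

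The largest negative difference was at a site 6104 bp from Ttpal, which encodes a protein related to the vitamin E transfer protein (chr2:163596078-163596285), with 156, 795 and 257 tags at 6 h and 192, 104 and 62.3 at 24 h. The raw groups overlapped, the centred ones did not, and the centred difference was -0.90 ± 0.30 (limma adjusted p = 0.345). The site in Plin4, a lipid droplet coat protein (chr17:56108744-56108964), had 74.1, 990.2 and 469.6 tags at 6 h and 227, 148 and 70.6 at 24 h. Replicates 2 and 3 at 6 h lay above the 24 h libraries there and replicate 1 did not, and the centred difference was -0.63 ± 0.39.

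Raw counts of all 24 h libraries lay below those of all 6 h libraries at 2 of the 67 sites (2.99%). A site 16783 bp from Trim2, a ubiquitin ligase gene, had 127, 211 and 144 tags at 6 h and 95.3, 46.9 and 62.3 at 24 h (centred -0.60 ± 0.40). A site 61625 bp from Trpm3, a cation channel gene, had 159, 377 and 214 at 6 h and 117, 112 and 94.5 at 24 h (centred -0.47 ± 0.34). Given that order, a lower mean at 24 h follows at both sites. The means at 6 h and 24 h were 161 ± 44.2 and 68.2 ± 24.7 near Trim2, and 250.1 ± 114 and 108 ± 11.8 near Trpm3 (SD, n = 3 each). After centring, 4 sites lay wholly below (5.97%; AA986860, Ttpal and Mycl among them) and 5 wholly above (7.46%; Dio3, Nr1i2, Dnaja3, Armc12 and Tnfrsf8), and the pair of raw cases was not among them.

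**Figure D5:**
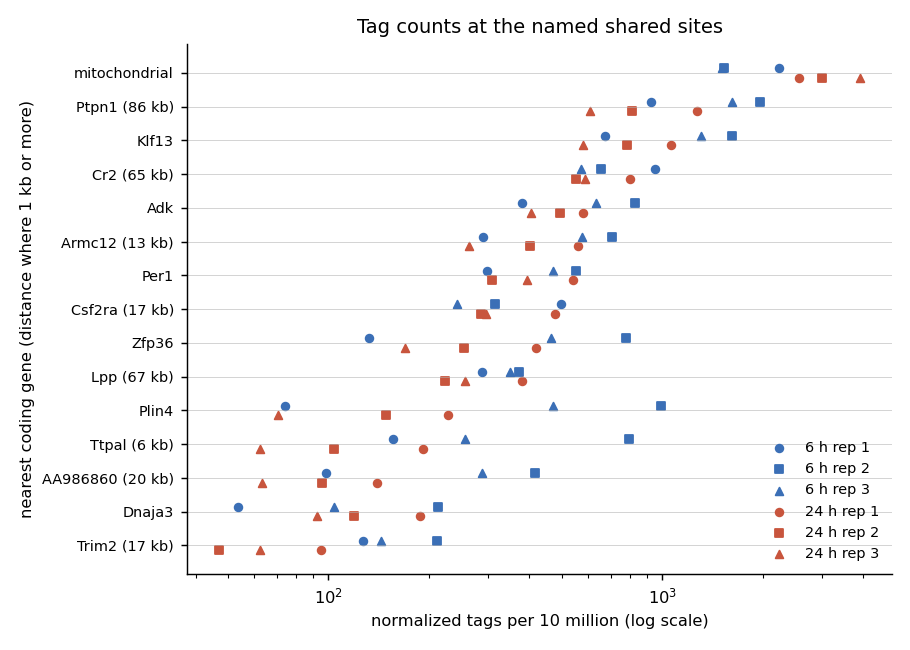
Normalized tag counts (log axis) in each library for the 10 shared sites with the highest mean and the 4 with the largest centred difference in each direction, with 6 h and 24 h libraries in separate colours. The 3 libraries of 6 h spread more widely than those of 24 h at most sites, with replicate 2 at 6 h at the right and replicate 1 at the left, as at Plin4 (990.2 and 74.1 tags).

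Replicate 1 at 6 h differed from its group at the sites themselves. Over the 64 shared sites with under 10 input tags it was the lowest of the 6 libraries at 34 and the highest at 0, while replicate 2 at 6 h was the highest at 63. At 2 of the sites with many input tags the order turned: near Cr2 (chr1:195241619-195241813, 106 input tags on average) the 6 h libraries had 948, 657 and 572 tags and the 24 h libraries 800.2, 552 and 585, and near Csf2ra (53.9 input tags) they had 496, 314 and 243 against 477, 287 and 296. Across the 67 sites the correlation of log2 tag counts was 0.651 between replicates 1 and 2 at 6 h, 0.803 between 1 and 3, 0.895 between 2 and 3, and 0.905 to 0.953 among the 24 h libraries. Replicate 1 at 6 h correlated with replicate 3 at 24 h at 0.910. These are descriptions across sites, which share input and base composition, and are not replicates.

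Gene lists were drawn up for GR, liver metabolism, hypoxia and cell types. Of 222 genes in 12 lists, 221 matched the gene table, and 45 had a site in at least 2 of the 6 libraries. At the best site of these 45 genes, 32 had peaks in more libraries at 6 h than at 24 h, 13 in as many and 0 in fewer. The same count over the best sites of all 429 protein-coding genes found in at least 2 libraries was 342, 83 and 4, so the share with more libraries at 6 h was 71.1% in the lists and 79.7% overall. In all, 12 list genes had a site in every library, and at 17 (37.8%, against 48.3% of the 429) the best site had no peak at 24 h. At the 17, counts at 6 h ran from 33.8 to 369.5 tags. Of the 45 best sites, 42 had peaks in all 3 libraries of 24 h hypoxia with DEX, and 42 in all 3 of 6 h hypoxia with DEX (93.3% each, against 88.6% and 89.0% of the 429).

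Classical glucocorticoid-induced genes, the longest list, held the most sites among the lists. A site in at least 2 libraries was nearest to 20 of the 30 genes at 6 h and 12 at 24 h, against 416 (1.90%) and 129 (0.589%) of 21900 protein-coding genes. The list was chosen with earlier results of these data known, so this contrast is a description and not a test. Cdkn1a, a cell cycle inhibitor, had 61.9, 732 and 260.5 tags at 6 h and 264, 183 and 124 at 24 h. Zbtb16, a transcriptional repressor, had 77.9, 494 and 382 at 6 h and 284, 117 and 83.1 at 24 h. Nfkbia, the inhibitor of NF-κB, had 53.0, 297 and 181 at 6 h and 145, 51.2 and 59.2 at 24 h. At these 3 genes replicate 2 at 6 h was the highest library and the groups overlapped. Klf9, a Krüppel-like factor, had 128, 277 and 169 at 6 h and 132.0, 115 and 139 at 24 h. The 10 sites of this list found in all libraries had a median centred difference of 0.17, 6 above 0 and 4 below, against 0.14 over all 67 sites, and a median of -0.49 without centring, against -0.52.

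A site 98204 bp from Errfi1, an inhibitor of the epidermal growth factor receptor, had 97.7, 298 and 228 tags at 6 h. At 24 h it had 183 and 88.7 in replicates 1 and 2 and no peak in replicate 3. Lpin1, a phosphatidate phosphatase, had 94.5, 424 and 174 at 6 h and 169 and 97.2 at 24 h, again with no peak in replicate 3. Foxo3, Pik3r1 and Hif3a likewise had peaks in 3 libraries at 6 h and in 2 at 24 h. Igfbp1, which encodes a circulating binder of insulin-like growth factors, had 42.8, 181 and 86.2 at 6 h and 87.4 in 1 library at 24 h. Mt2, the neighbour of Mt1, had 369.5 and 60.8 tags in replicates 2 and 3 at 6 h and no peak elsewhere.

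The list of gluconeogenesis and amino acid breakdown had 22 genes, of which 10 had a site in at least 2 libraries at 6 h and 1 at 24 h. Over all 21900 protein-coding genes the counts were 416 (1.90%) and 129 (0.589%). The 1 list gene at 24 h was Prodh, proline dehydrogenase, with 116, 393 and 281 tags at 6 h and 248, 153 and 115 at 24 h (centred 0.14 ± 0.21). Tat, tyrosine aminotransferase, a textbook GR target, had 129.6 and 67 tags in replicates 2 and 3 at 6 h and no peak at 24 h. Pck1, which encodes the cytosolic phosphoenolpyruvate carboxykinase of gluconeogenesis, had 98.0 and 82.5 tags in those 2 libraries and 67.5 in 1 library at 24 h. G6pc, the catalytic subunit of glucose-6-phosphatase, had 124 and 80.0 tags and 62.5 in 1 library at 24 h. Got1, an aspartate aminotransferase, had 300.8 and 104 tags. A site 18395 bp from Cps1, the first enzyme of the urea cycle, had 159 and 75.7. Neither Got1 nor Cps1 had a peak at 24 h. Replicate 1 at 6 h lacked a peak at each of these genes but Prodh. It had 33.8 tags at a site 24392 bp from Arg1, the arginase of the urea cycle.

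Of 24 genes of fatty acid oxidation, ketogenesis and lipid droplets, 4 (16.7%) had a site in at least 2 libraries at 6 h and 2 (8.33%) at 24 h. Over all 21900 protein-coding genes the counts were 416 (1.90%) and 129 (0.589%). Cpt1a, the carnitine palmitoyltransferase that admits fatty acids to mitochondria, had 122 and 62.7 tags in replicates 2 and 3 at 6 h and none at 24 h. Bdh1, a ketone body dehydrogenase, had 224 and 44.7. Of 27 matched targets of hypoxia-inducible factors, 3 (11.1%) had such a site at 6 h and 1 (3.70%) at 24 h. Fewer genes at 24 h than at 6 h was thus the order over all protein-coding genes too. Hif3a, a hypoxia-inducible factor subunit, had 42.8, 476 and 133 tags at 6 h and 71.5 and 51.2 at 24 h. Epas1, which encodes HIF-2α, had 123 and 78.2 tags at 6 h and 69.5 in 1 library at 24 h. A site 9825 bp from Bnip3, a mitophagy receptor, had 107 and 42.2 tags at 6 h only.

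For the list counts that follow, the background is 416 (1.90%) of all 21900 protein-coding genes at 6 h and 129 (0.589%) at 24 h. The clock list had 5 of 20 genes with a site in at least 2 libraries at 6 h (Per1, Per2, Ciart, Tef and Usp2) and 1 at 24 h, Per1. Per2 had 47.3 and 110.4 tags in replicates 1 and 2 at 6 h and 70.5 in 1 library at 24 h. The acute phase list had 5 of 25 at 6 h and 2 at 24 h, Nfkbia and Zfp36. Dusp1, a phosphatase of stress kinases, had 95.8 and 52.7 tags at 6 h and no peak at 24 h. The list of bile acid, cholesterol and xenobiotic genes had 2 of 20 and 1 (Nr1i2), and liver transcription factors had 3 of 19 and 2, Nr1i2 and Rxra. A site 51276 bp from Rxra, the partner of many nuclear receptors, had 63.2, 330.1 and 136 tags at 6 h and 164, 93.8 and 64.4 at 24 h.

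Of 40 markers of other liver cells, 2 (5%) had a site in any library, against 712 of 21900 protein-coding genes (3.25%). Of 15 markers of Kupffer cells and leukocytes and 13 of stellate cells and cholangiocytes, 0 had a site in any library, and of 12 markers of endothelium 2 had a site but 0 in at least 2 libraries of a time. Of 14 hepatocyte markers, 2 (14.3%, Cps1 and Hamp) had such a site at 6 h and 0 at 24 h. Over all protein-coding genes the shares were 1.90% and 0.589%. Binding near a gene is not its expression, so this does not measure the cell makeup of the samples.

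The position of peaks relative to genes differed by less than the spread between libraries. Peaks inside a gene or within 1 kb of its end were 52.9% ± 3.00 at 6 h and 50.8% ± 4.06 at 24 h (n = 3 each), -2.07 points from 6 h to 24 h (exact permutation test, p = 0.5). Its sign turned at equal list length, where the difference was 4.70 points (exact permutation p = 0.2), and with the common threshold, where it was 0.186.

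The same times were compared with DEX at 64 sites found in all 12 libraries of hypoxic animals. Medians over these sites were 409, 529 and 336 tags at 6 h with DEX and 281, 387 and 446 at 24 h with DEX, against 80.8, 372 and 229 and 170.3, 114 and 84.7 with PBS. The highest library was 4.60 times the lowest at 6 h with PBS, 2.01 times at 24 h with PBS, 1.58 times at 6 h with DEX and 1.59 times at 24 h with DEX. The log2 difference of medians between times was -0.69 with PBS and -0.19 with DEX (exact permutation p = 0.5 for each). In the limma interaction fit, which tests whether the centred difference between times itself differs between PBS and DEX, 0 of 64 sites were called (0%) and 5 (7.81%) had an unadjusted p under 0.05. The smallest p was at Ttpal, where the difference was -0.87 with PBS and 0.26 with DEX (interaction -1.13 ± 0.31, limma adjusted p = 0.109), followed by Nr1i2, at 0.55 with PBS and -0.19 with DEX (interaction 0.74 ± 0.22, limma adjusted p = 0.109). Without replicate 1 of 6 h PBS the interaction was called at 8 sites, and without replicate 3 of that group at 1 site, Ttpal, with a value of -1.42.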

How the data were processed

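GR ChIP-seq peak lists of 6 libraries (3 at 6 h and 3 at 24 h of hypoxia with PBS) were compared, with the 6 libraries of hypoxia with DEX as reference. The submitters' processing notes name Trimmomatic, BWA 0.7.17, SAMtools 1.10, HOMER and mm10, without order or settings; no HOMER version is stated in the sources used. Per the file headers, each library's peaks were called on their own, with the input of its time as control, and needed 4-fold more tags than the input with a Poisson p of 1e-04. The authors' normalized tags, the signal of a peak, are scaled to 10000000 tags in every library. The input tags are a deposited signal scaled to the depth of the GR library they were set against. The fold over input therefore does not follow from the normalized tags and the input tags as printed. The deposited count of total tags per peak is whole and unscaled, and only edgeR used it. The authors' score and ratio (fold over input) served only for ranking and filtering within lists.

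Peaks overlapping by 1 bp were merged, and the tag count of a site in a library was that of its highest peak. Sites took the nearest of 21900 protein-coding genes (GRCm38.p6) by the distance from site to gene span. Log2 normalized tags of sites with a peak in all 6 libraries, centred on each library's median, were fitted with limma 3.58.1 (R 4.3.3, two-sided, Benjamini-Hochberg, threshold 0.05), with no pseudocount, since every value was above 0. edgeR 4.0.16 was an alternative. Exact two-sided permutation tests were run on the values per library (scipy 1.17.1). The scripts were tested on simulated data. Sites named in the text were the 10 highest, the 10 largest differences in each direction, the 10 highest sites in all libraries of 1 time and none of the other, and the best site of each list gene found in at least 2 libraries. From each of these sets some are described and the rest are given by counts. Of the sites that the rule names, 1 is left out and not reported here. Sites outside this rule (at Slc10a6, Map3k6, Ppp1r3b, Ly6l, Mycl, Tnfrsf8 and the clusters of the closing section) were picked after their values were seen. The members and gene lists were chosen with earlier results of these data known. The series' design text calls the replicates biological. The alternatives tried were other thresholds, merging rules, scalings and tests, equal list length, and leaving out each library. The search for GR elements covered promoter windows only, and the inputs were not analysed as samples.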

Additional observations from a re-analysis of the deposited data

How the results depend on the processing

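Deviations of libraries with the same replicate number correlated at -0.61, 0.06 and -0.40 across sites. Those of libraries with other numbers correlated at -0.53 to 0.58. Deviations from a mean of 3 libraries depend on one another, so these values cannot show whether the libraries were paired. With the replicate number as a block, limma called 1 site higher at 24 h, the mitochondrial site (1.51, adjusted p = 0.0108), against 0 without the block, and edgeR also called 1. Leaving out 1 library gave 0 to 6 sites higher and 0 to 1 lower, with all calls from the omission of replicate 1 at 6 h: higher at the mitochondrial site (2.32), Csf2ra (1.60), Cr2 (1.34), Dnaja3 (1.07), Per1 (0.95) and Lpp (0.92), and lower at Plin4 (-1.07). Of these, the mitochondrial site, Csf2ra and Cr2 were the 3 shared sites with 10 or more input tags. The same omission without centring, an alternative chosen after seeing the data, called 25 sites lower and 0 higher. It gave 1.04 at the mitochondrial site, 0.31 at Csf2ra and 0.055 at Cr2. The 25 calls had the same standard error, 0.516. Each includes the shift of the library medians, which was -1.29 without that library (exact permutation test, p = 0.2). Interaction calls ran from 0 to 8 over the omissions, with 8 without replicate 1 and 1 without replicate 3 at 6 h. Sites in every 6 h library and no 24 h library numbered 31 to 249 over the omissions, 11 at the common threshold and 1 at equal list length (78 peaks each). Sites in every 24 h library and no 6 h library numbered 0 at 8-fold over input, 4 at equal list length and 0 when an overlap of 100 bp was asked for. Sites in every library numbered 31 at equal list length and 67 to 124 over the omissions, the highest without replicate 3 at 24 h. The difference in the share of peaks at genes was 0.186 points at the common threshold, 4.70 at equal list length, and -3.73 to 0.258 over the omissions (0.258 without replicate 3 at 24 h). The log2 difference in peak number kept its sign over the omissions (-2.23 to -1.25), as did the share of tags in peaks (-0.680 to -0.185 points) and the median tag count (-1.29 to -0.19).

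Without centring, the difference turned negative at Per1 (-0.077), Nr1i2 (-0.14), Cr2 (-0.15), Dio3 (-0.16), the Armc12 site 7694 bp from that gene (-0.20), Klf15 (-0.22) and Gm5148 (-0.24), and without both centring and replicate 1 at 6 h at Dnaja3 (-0.22), Per1 (-0.34), Nr1i2 (-0.85), Dio3 (-0.75), Armc12 (-0.78), Klf15 (-0.79) and Gm5148 (-0.78). At Cr2 it was -0.018 without replicate 2 at 6 h. The cause of these changes was not tested. The other sites among the 10 largest differences in each direction kept their sign in every setting that gave them a value. Sites found in fewer than 6 libraries have no tag count where no peak was called, and with 3 libraries per time the exact tests cannot go below 0.1, so an absent call does not show that binding was alike.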

Other observations

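Several loci held clusters of sites, and their calls were counted over all sites of a locus (3 libraries per time). Over all 903 sites there were 1603 calls at 6 h and 491 at 24 h, so calls at 24 h were 30.6% of those at 6 h. The 8 sites nearest to Ptpn1 lay over 37.3 kb, 70019 to 107149 bp from the gene, and had 17 calls at 6 h and 15 at 24 h (88.2%). Their summed tags were 1142, 3765 and 2635 at 6 h and 2068, 1230.0 and 816 at 24 h. A site without a peak in a library adds nothing to its sum, so the sums do not cover the same sites in each library. The 6 sites inside Zbtb16 lay over 25.7 kb and had 16 calls at 6 h and 11 at 24 h (68.8%). The 5 sites nearest to Wdr5, a subunit of histone methyltransferase complexes, had 11 and 9 (81.8%). These shares are above that of all sites; the difference was not tested.

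At other clusters the share was close to that of all sites: the 7 sites nearest to Errfi1 had 14 calls at 6 h and 4 at 24 h (28.6%), and the 5 nearest to Foxo1 had 12 and 4 (33.3%). The 5 sites of Tat, spread over 8.5 kb, had 9 calls at 6 h and 0 at 24 h, with 0, 515 and 242 summed tags in the 6 h libraries (0 meaning no peak). The 6 sites nearest to Gadd45g, a stress-response gene, had 7 calls at 6 h, nearly all in replicate 2 (1259.5 summed tags, against 62 in replicate 3 and no peak in replicate 1), and 0 at 24 h. These counts move with the length of each library's list, and their part in the difference between loci was not tested.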
